A study of Mus musculus with 12 samples.

Results

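The 4 day 3 libraries of a 12-library series were compared with each other, replicate 2 against replicate 1 within each arm. All came from RAW264.7 cells, an immortalized mouse monocyte and macrophage line of Balb/c origin, given the osteoclast-inducing cytokine RANKL and harvested on day 3. In the vehicle arm the cells received MEM-alpha medium and in the treatment arm L. reuteri (Lactobacillus reuteri) culture supernatant, with 1 library of each replicate number per arm. The members were set by the labels' day and replicate number, because replicate 2 had stood out in both arms for little messenger RNA, much Malat1 and much mitochondrial RNA. Those 3 shares are therefore given as a description without a test, and the question is which other transcript classes were kept or lost. RNA was extracted with Trizol and 1 µg of total RNA went into each TruSeq RNA library. The labels do not say whether replicate numbers mark separate cultures, extractions or preparations, so p-values measure the spread between these pairs only, which may be technical. Replicate number and library kind cannot be told apart, and neither can fewer cells of a type and less RNA per cell.

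Messenger RNA is made and spliced in the nucleus, gains a poly(A) tail and is exported to the cytoplasm, where it is translated and degraded. Malat1, Neat1 and Kcnq1ot1 are long noncoding RNAs that stay in the nucleus, spliced-out introns are usually degraded there, and snRNAs, snoRNAs and scaRNAs act in nucleoplasm, nucleolus and Cajal bodies. Mitochondria transcribe their own rRNAs, tRNAs and mRNAs from a separate genome inside the organelle. The mRNAs of the glycolytic, translational and lysosomal machinery are mostly cytoplasmic at steady state.

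Each library carried 16265588 and 16240609 recovered reads in replicate 1 and 8646921 and 8071160 in replicate 2, in the order vehicle and treatment. Nuclear protein-coding genes took 85.7% of reads in vehicle replicate 1 and 38.1% in replicate 2. In the treatment arm they took 85.2% and 47.0%. Malat1 took 0.384% and 14% in the vehicle pair and 0.489% and 8.67% in the treatment pair. The mitochondrial chromosome took 4.93% and 28.3% in the vehicle pair and 5.38% and 25.7% in the treatment pair. In the 6 libraries of day 1 and of day 5 replicate 1, nuclear coding genes took 85.2% to 87.6% and Malat1 0.218% to 0.336%, so both day 3 replicate 1 libraries lay a little above that range for Malat1. Day 5 replicate 2 had 41.0% to 48.8% and 8.15% to 9.84%. With mitochondrial genes and Malat1 left out, nuclear coding genes still held 66.0% and 71.6% of the remaining reads in replicate 2, against 90.5% in either replicate 1 library. Sampling error on shares this large is small beside these gaps, and reads without molecular identifiers are not independent molecules.

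**Figure D1:**
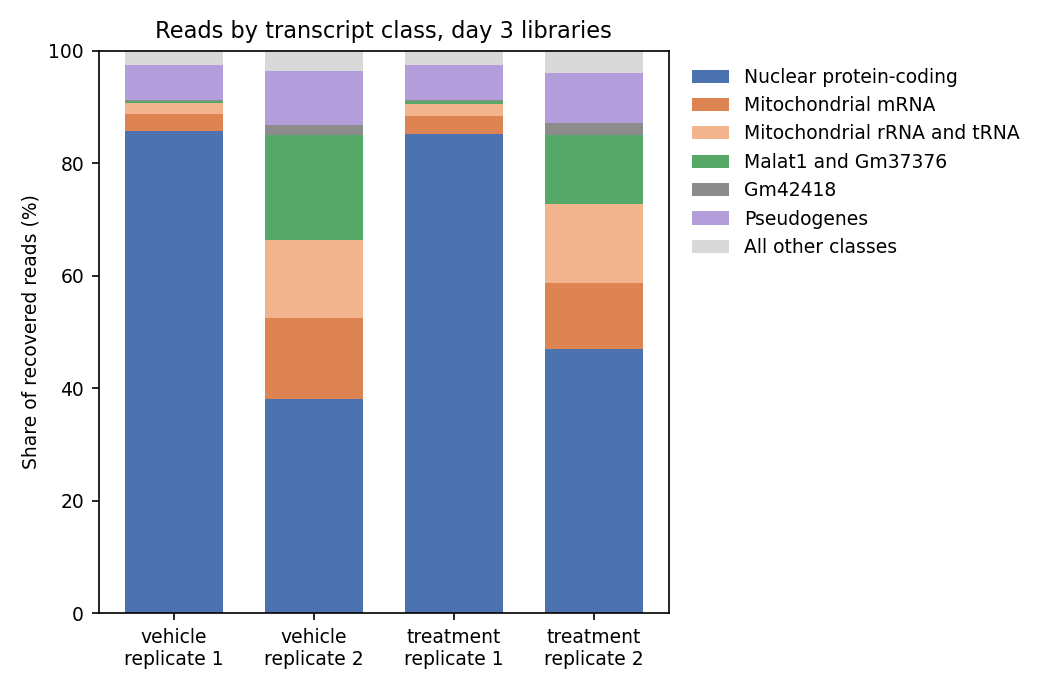
Share of recovered reads (y axis, %) by transcript class in the 4 day 3 libraries (x axis), 1 bar per library, with no error bars because each bar is 1 library. Nuclear protein-coding reads take 85.7% and 85.2% in replicate 1 and 38.1% and 47.0% in replicate 2, where mitochondrial RNA, Malat1 with the overlapping Gm37376, Gm42418 and pseudogenes fill the space.

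The deposited normalized counts sum to the same total in every library, so a large gain in Malat1 and mitochondrial RNA lowers every other gene's value by construction. Differences are therefore given on 2 scales, as replicate 2 minus replicate 1 of log2(normalized count + 8): on the deposited scale, and rescaled to each library's nuclear protein-coding total (called the coding scale), which moves the median of all genes by 0.96. The added 8 shrinks the differences of low genes. On the deposited scale the median over the 14844 genes tested was -1.24, with -1.44 in the vehicle pair and -1.04 in the treatment pair, and on the coding scale it was -0.39. By limma with Benjamini-Hochberg adjustment, 1671 genes were higher in replicate 2 (11.3% of those tested) and 9556 were lower (64.4%). On the coding scale the numbers were 3559 higher and 6253 lower, so the share of higher calls among all calls went from 14.9% to 36.3%, and with quantile normalization it was 45.5%. Without any estimate of spread, 1068 genes (7.19%) were higher by over 1 log2 unit in both pairs and 7259 (48.9%) were lower. The direction was the same in both pairs for 92.5% of genes, with a Pearson correlation of 0.93 across genes, which are not independent replicates. On the deposited scale the fall was larger in the vehicle pair. In a fit over 12 libraries, whose spread comes from day 1 alone, 4872 genes (32.8%) had a lower difference in the vehicle pair and 319 (2.15%) a higher one. That fit was not run on the coding scale. The nuclear coding share also fell further in the vehicle pair, so these counts include that gap in composition. Replicates 1 and 2 of day 1, which are of the same composition, had a median difference of -0.01, and limma called 0 of the same genes (1386 at an unadjusted p under 0.05).

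**Figure D2:**
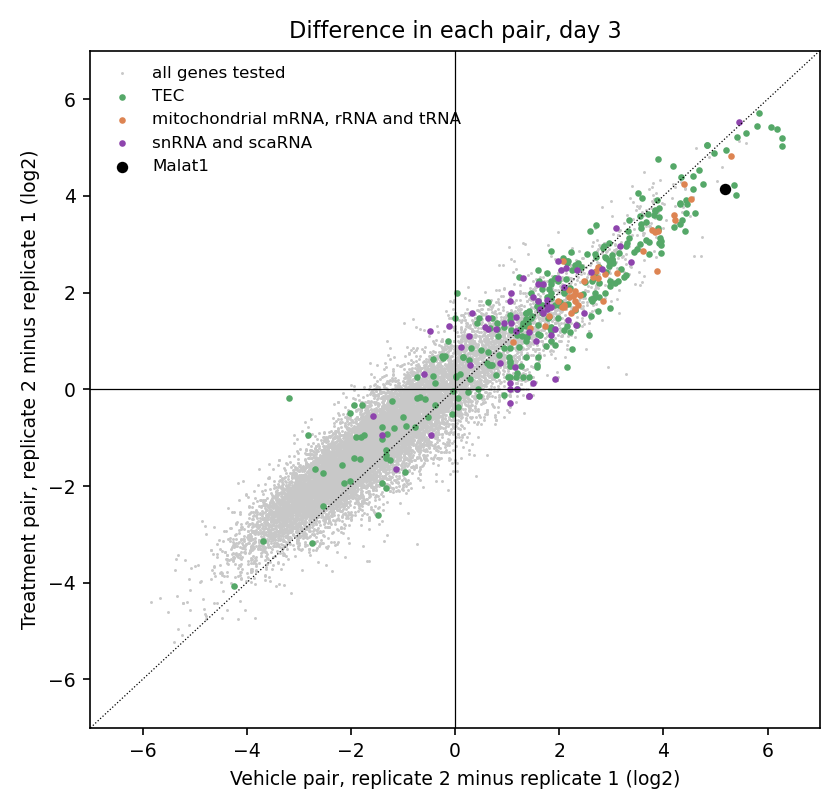
Each point is 1 of the 14844 genes tested, placed by its difference in the vehicle pair (x axis) and in the treatment pair (y axis), both log2 replicate 2 minus replicate 1, with the dotted line marking equal differences. Most genes lie below 0 in both pairs, while mitochondrial transcripts, Malat1 and most TEC loci, snRNAs and scaRNAs lie above 0 in both. Most of the TEC loci, snRNAs and scaRNAs were tested only because of their replicate 2 values.

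Malat1, the abundant nuclear speckle RNA, had normalized counts of 48762 and 1774956 in the vehicle pair and 62091 and 1101977 in the treatment pair, differences of 5.19 and 4.15. Gm37376, which lies inside Malat1 on the opposite strand, had 8296 and 599163 in the vehicle pair and 11158 and 464414 in the treatment pair, and with no strand setting stated its reads cannot be told apart from those of Malat1. Of 14 listed nuclear long noncoding RNAs, Malat1 among them, 9 were in the table and 8 passed the filter on low values (at least 10 normalized counts in at least 1 of the 4 libraries). Of the 7 other than Malat1, whose level marks these libraries, 5 were higher and 2 lower, with a median of 1.97 (2.91 on the coding scale). Kcnq1ot1, the long antisense RNA of an imprinted domain, rose from 1006 and 1151 to 14729 and 13607 normalized counts (log2 difference 3.71, adjusted p = 2.6e-29). Neat1, the scaffold of paraspeckles, rose much less, from 8098 and 9655 to 12354 and 16155 (0.68, SE 0.30, adjusted p = 0.0335). Its replicate 2 values lay above both replicate 1 values by a margin far smaller than for Malat1 or Kcnq1ot1. Gm26917 rose from 2802 and 2590.3 to 18617 and 18784. Firre, which organizes nuclear contacts between chromosomes, fell on the deposited scale (-1.46), did not pass on the coding scale (-0.48) and was 0.01 with quantile normalization. Pvt1, the noncoding neighbour of Myc, did likewise (-1.20, -0.22 and 0.29). Gm42418, a locus known to overlap ribosomal RNA repeat sequence, rose from 19641 and 24420.2 to 226575 and 261162 normalized counts, a log2 difference of 3.47.

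All 13 mitochondrial mRNAs were higher in replicate 2 of both arms, with a median difference of 2.05 (3.06 on the coding scale), a description because this share marks the libraries. The mitochondrial members did not move by equal amounts. The small-subunit rRNA mt-Rnr1 went from 9380.4 and 11415 to 197341 and 216069.5 normalized counts, a difference of 4.32. The large-subunit rRNA mt-Rnr2 went from 216568 and 255039 to 1457762 and 1469503, a difference of 2.64 (-0.26 with quantile normalization). Cytochrome c oxidase subunits mt-Co1 and mt-Co2 differed by 2.13 (-0.22 with quantile normalization) and 2.63. The 22 mitochondrial tRNAs were all higher, with a median of 2.44. The serine tRNA mt-Ts1 differed by 3.90 in the vehicle pair and 3.28 in the treatment pair. Unprocessed pseudogenes, a class that includes nuclear copies of mitochondrial genes, went from 1.5% and 1.52% of reads to 7.69% and 6.17%. A few members carried this share: in vehicle replicate 2, Gm28661, Gm28437 and Gm29216 held 28.5%, 22.9% and 19.3% of the class. Of 90 tested, 57 were lower and 19 higher, with a median of -1.41. Of these, 32 passed the filter on low values through replicate 1 only and 8 through replicate 2 only, so their direction was set by the filter. The 40 at the minimum in all 4 libraries had 22 lower and 13 higher (median -1.11).

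Loci inside introns were examined next. The annotation's TEC class holds single transcripts still awaiting experimental evidence, many of them placed inside introns of coding genes. The 580 TEC loci other than Gm37376 together took 0.0430% and 0.0432% of reads in replicate 1 and 0.279% and 0.220% in replicate 2, a sum that no filter on low values touches. Of all 581 TEC loci, 286 passed the filter, 187 of them only through replicate 2, so that these had to differ. At or above the minimum in all 4 libraries were 48 loci, of which 30 were higher and 5 lower, with a median of 1.55. For all genes at the minimum in all 4 libraries the numbers were 787 higher and 7868 lower of 11469, with a median of -1.37. TEC loci lying wholly within an intron of a coding gene on the same strand had a median of 2.11. The 109 not inside a same-strand coding gene had 0.78. Both medians include loci that passed the filter only through replicate 2, so the gap between them is partly set by the filter. For 168 of the intronic loci the host gene was also tested, 142 of them having passed only through replicate 2. The 15 at the minimum in all 4 libraries had a median of 2.34, with 12 higher and 0 lower by limma. The 111 host genes themselves had a median of -1.32, with 3 higher and 78 lower, and -0.40 on the coding scale.

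Locus and host can be set side by side. A130071D04Rik, inside Ptprc, rose from 25 and 39.1 to 1336 and 869 normalized counts. Ptprc, the leukocyte phosphatase CD45, fell from 6285 and 5960.1 to 2463 and 2759 (-1.23, and -0.22 on the coding scale, which did not pass). Gm37084, inside Mapkapk2, rose from 10.9 and 11 to 532 and 622, and Mapkapk2, a kinase downstream of p38, fell by 2.05 on the log2 scale. Gm37060, inside Rasal2, rose from 16.4 and 14.9 to 886 and 698. Its host, a Ras GTPase-activating protein gene, had 1575 and 1232 and then 1121 and 990.5, a difference of -0.40 that did not pass (0.61 on the coding scale, 0.76 with quantile normalization). Gm37333 lies inside Nav1, a neuron navigator gene, and both rose, by 4.48 and 0.97. In these 4 loci every replicate 2 value was above every replicate 1 value.

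**Figure D3:**
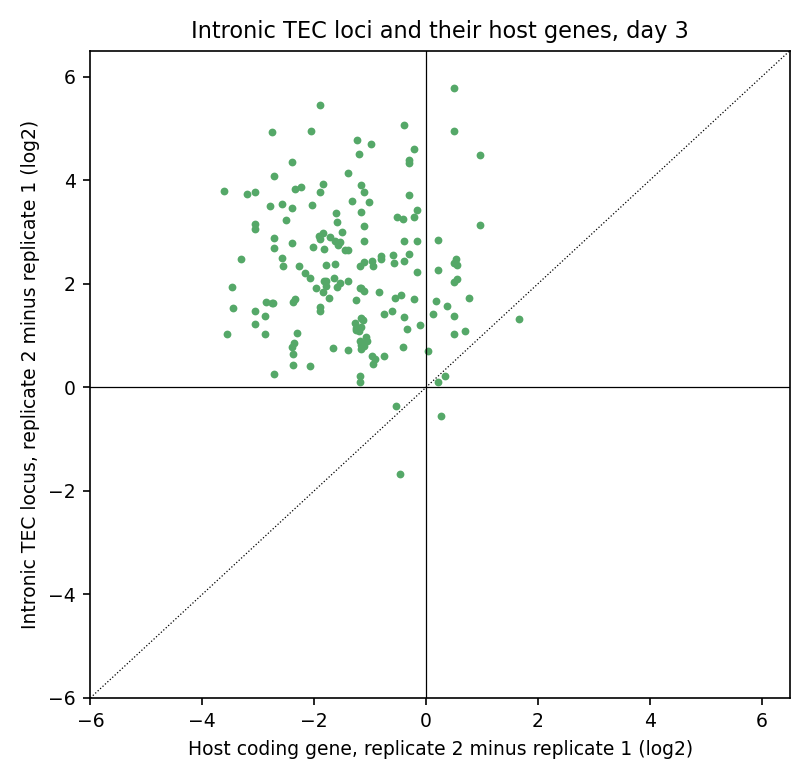
Each point is 1 of 168 TEC loci lying inside an intron of a same-strand coding gene, by the log2 difference, replicate 2 minus replicate 1, of the host gene (x axis) and of the locus (y axis), with equal differences on the dotted line. Most points lie above 0 for the locus and below 0 for the host, and most of these loci passed the filter through replicate 2 only.

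The 10 genes with the largest rises were 8 TEC loci, the snRNA gene Gm25514 and the snoRNA gene Gm22972. C130089K02Rik, inside the Notch coactivator gene Maml3, went from 3.91 and 5.48 to 675 and 696 normalized counts. 5330406M23Rik lies in the noncoding gene Lncpint and Gm37474 in Fli1, an ETS transcription factor gene. Gm38071, Gm36963 and 9430053O09Rik all overlap the noncoding host gene Mir99ahg and differed by 5.65, 5.61 and 5.74, so they are not independent. 9630010A21Rik rose by 5.32. These loci had at most 36.8 normalized counts in replicate 1, Gm37376 aside. Such sizes depend on the added 8.

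Small nuclear RNAs mostly passed the filter through replicate 2. RNAs made by RNA polymerase III and the RNase P and MRP RNAs mostly reached the minimum in both kinds: 6 of 6 tested were higher, with a median of 1.74 (2.62 on the coding scale), and 1 of them passed the filter through replicate 2 only. The 5 at the minimum in all 4 libraries were all higher, with a median of 1.57. Rn7sk, the 7SK RNA that holds back transcription elongation, rose from 141 and 97.0 to 1649 and 1365 normalized counts. Rn7s1 and Rn7s2, near-identical signal recognition particle RNA genes whose reads may be shared, rose by 1.56 and 1.57. Rpph1, the RNase P RNA, rose from 11.7 and 21.9 to 101 and 67.7. Of 53 snRNA genes tested, 38 were higher and 3 lower (median 1.30), but 47 passed only through replicate 2. Gm25514 had 0 and 1.57 in replicate 1 and 339.5 and 436 in replicate 2. Of 8 scaRNAs, 6 were higher and 0 lower, and 6 passed through replicate 2 only. The 143 snoRNAs were split, 49 higher and 53 lower, with a median of -0.39 that became 0.21 on the coding scale and 0.07 with quantile normalization. Gm22972 rose from 9.38 and 14.9 to 754 and 795. Among snoRNAs wholly inside an intron of a coding gene 29 of 47 were higher, while the host genes of these had a median of -1.38, but 28 of the 47 passed the filter through replicate 2 only. Of all 143, 42 passed through replicate 2 only and 55 through replicate 1 only, and the 28 at the minimum in all 4 libraries had 7 higher and 7 lower (median 0.12).

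Of 14 noncoding genes that host snoRNAs, 1 was higher and 4 lower, with a median of -0.53 (0.43 on the coding scale and 0.79 with quantile normalization). Gas5 had 2800.4 and 1411 in the vehicle pair and 2657 and 2491 in the treatment pair and did not pass (-0.54, but 0.47 on the coding scale and 0.35 with quantile normalization). Snhg14, a host of imprinted snoRNAs, fell by 2.78 on the log2 scale. Across classes, 97 lincRNAs were higher and 109 lower of 322 (median -0.23, but 0.52 on the coding scale and 0.58 with quantile normalization), and 113 antisense RNAs were higher and 319 lower of 614 (median -0.81). Of 1037 processed pseudogenes, which often share reads with their parent mRNAs, 161 were higher and 564 lower, with a median of -0.94. The 154 inside a same-strand coding gene had 59 higher and 55 lower (median -0.0006), and the 883 elsewhere 102 and 509 (median -1.02). In this class 125 passed the filter through replicate 2 only and 231 through replicate 1 only. Loci inside coding genes did not all rise. The 91 miRNAs so placed had 12 higher and 60 lower (median -1.27), and the 49 elsewhere 20 and 20 (median 0.18).

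Histone mRNAs of the replication-dependent type end in a stem loop and lack a poly(A) tail. Of 62 such genes 37 passed the filter, with 20 higher and 5 lower (median 0.77, and 1.5 on the coding scale). At the minimum in all 4 libraries were 18 genes, of which 11 were higher and 4 lower. Hist1h2ap went from 526 and 707 normalized counts to 2003 and 2143, and Hist1h2ao had nearly the same values, so the pair may share reads. Hist1h2ag rose by 1.87 and Hist1h2ac by 2.00. Both replicate 2 values lay above both replicate 1 values for these 4 genes.

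Nuclear protein-coding genes had a median of -1.40, with 728 higher and 8013 lower of 11370 tested, and -0.50 on the coding scale. The lists differed widely in their medians, as the plot of list medians by pair shows. Among the 10 largest falls, Crkl, an adaptor in growth factor signalling, went from 665 and 630.0 to 8.82 and 12.6 normalized counts. Pik3ap1, an adaptor of phosphoinositide 3-kinase, went from 2032 and 1685 to 27.9 and 72.4. Slc25a30, a mitochondrial carrier gene, and Alg10b, a glucosyltransferase of N-glycan assembly, fell too (log2 differences -4.99 and -4.83). The lincRNAs 2900097C17Rik (-5.31) and Gm7292 (-5.17), and the antisense genes Gm20531 (opposite Ptpn6) and 4731419I09Rik (opposite Adam15 and Efna4), fell as far. Gm24574, annotated as a miRNA within Hnrnpa3, and the processed pseudogene Gm4202 had differences of -4.99 and -4.82. These 10 genes had day 5 differences of -5.37 to -4.0.

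**Figure D4:**
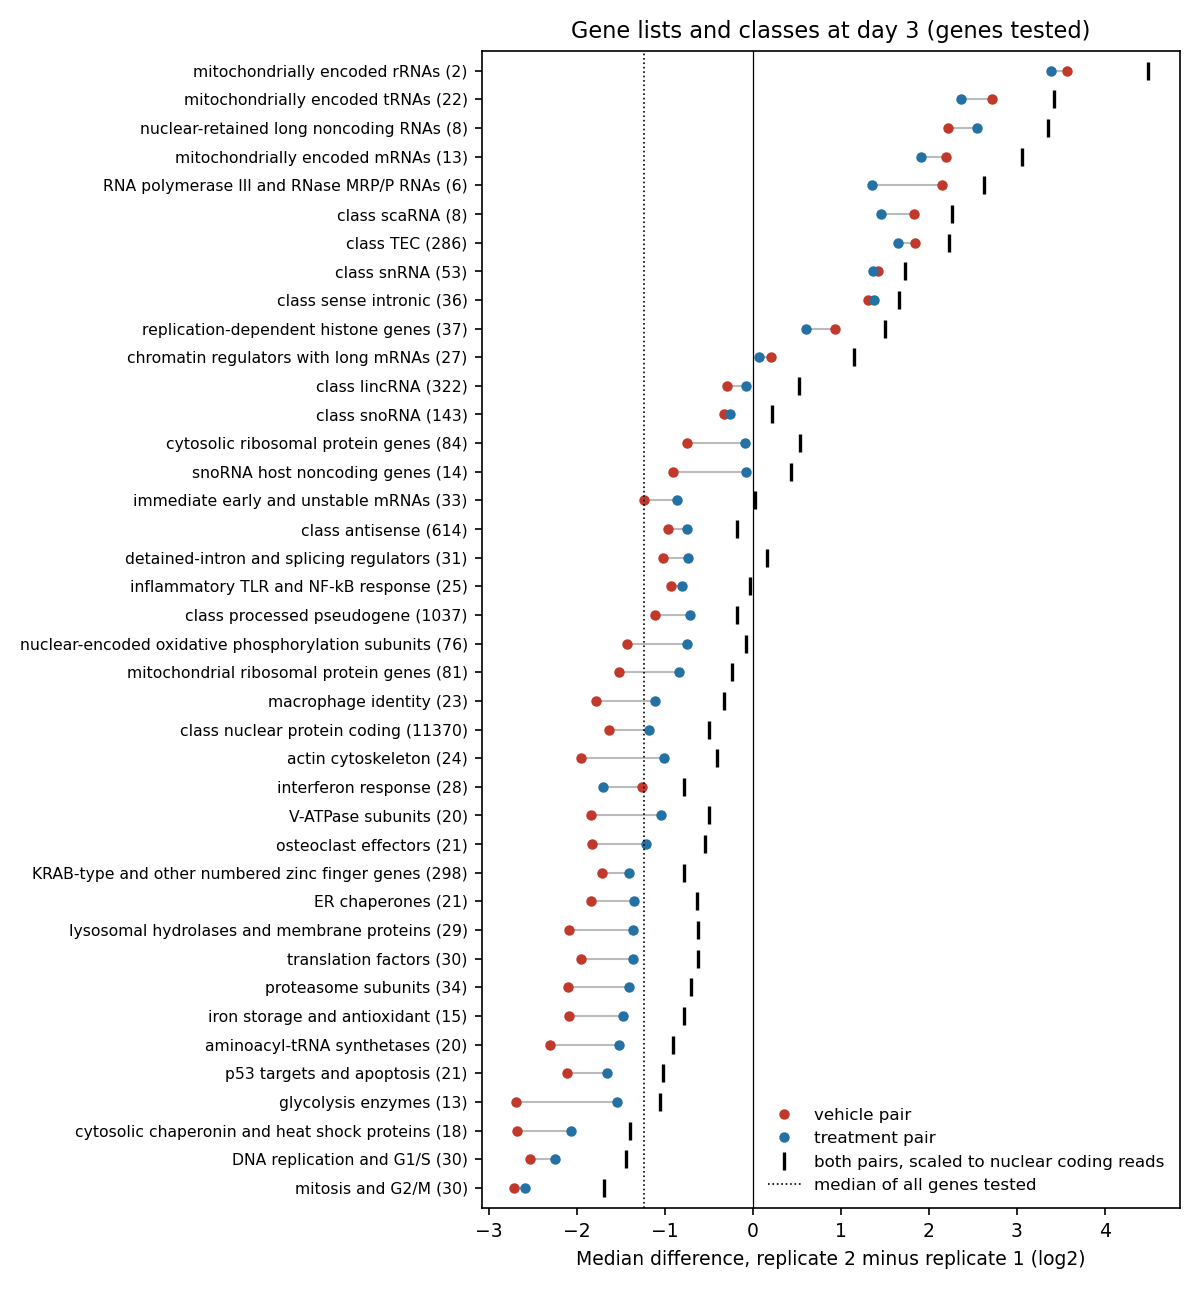
Median log2 difference, replicate 2 minus replicate 1 (x axis), of each list or class (y axis, number of genes tested in brackets) in the vehicle pair and in the treatment pair, with the value on the coding scale as a bar and the median of all genes tested as a dotted line. Mitochondrial RNAs, TEC loci, snRNAs, scaRNAs and polymerase III RNAs lie right of 0 in both pairs. Most TEC loci, snRNAs and scaRNAs tested passed the filter through replicate 2 only, so their medians are partly set by it. Mitosis, replication and chaperonin genes are among the 4 farthest left in the vehicle pair and are the 3 farthest left in the treatment pair.

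A sequence feature separated the coding genes, noticed after the values were seen and given with no test. For 8417 nuclear coding genes with a mean of at least 100 normalized counts, the 60-base window of the coding sequence richest in A and G was found on the GENCODE M21 transcripts (GRCm38). Below 70% purine, 2263 genes had a median of -1.56, with 3.05% higher. From 70% to 80%, 4553 genes had a median of -1.79, with 2.20% higher. From 80% to 90%, 1361 genes had a median of -0.99, with 11% higher. At 90% or more, 240 genes had a median of 0.39 (1.39 on the coding scale), with 42.1% higher (101 genes) and 54 lower, while over all 8417 genes 4.99% were higher and 75.4% lower. The split was present at each coding length: of genes at 90% or more, 15 of 30 with coding sequences of 150 to 1000 bases were higher, 25 of 60 from 1000 to 2000, 34 of 87 from 2000 to 4000 and 27 of 63 above. GC content and length were cut into 5 equal groups instead, far larger than the 240 genes at 90% or more. The features therefore cannot be ranked against each other. By transcript GC the medians ran from -1.88 in the lowest group to -1.16 in the highest. At day 5 the 240 genes had a median of -0.04, against -1.24 over all 8417.

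The following windows belong to 5 of the 8 genes at 90% purine or more with the highest mean normalized counts, chosen to show 4 that rose and 1 that fell, and to 2 of the highest under 70%, both of which fell. Lpl, also among the highest under 70%, had a difference of -0.01 that did not pass, and its window is not shown. Each is coding sequence, 5′ to 3′ on the gene's strand, with A and G in capitals, and the Hsp90ab1 window spans bases 682 to 741 of its coding sequence.
Hsp90ab1: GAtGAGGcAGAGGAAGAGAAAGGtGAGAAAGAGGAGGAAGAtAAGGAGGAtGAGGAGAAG
Rbm25: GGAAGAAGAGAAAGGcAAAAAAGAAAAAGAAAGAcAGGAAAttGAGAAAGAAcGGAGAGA
Prrc2c: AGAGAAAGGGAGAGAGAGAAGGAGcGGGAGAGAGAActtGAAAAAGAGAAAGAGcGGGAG
Anp32b: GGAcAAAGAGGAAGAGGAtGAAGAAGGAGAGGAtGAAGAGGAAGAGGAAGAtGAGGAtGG
Canx: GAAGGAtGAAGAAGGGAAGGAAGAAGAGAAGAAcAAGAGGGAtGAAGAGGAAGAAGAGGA
Lyz2: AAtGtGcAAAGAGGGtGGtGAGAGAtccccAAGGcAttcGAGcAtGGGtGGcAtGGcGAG
Ftl1: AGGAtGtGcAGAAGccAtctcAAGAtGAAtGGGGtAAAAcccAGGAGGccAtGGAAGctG
The first 5 hold 91.7% to 95% A or G, and the last 2 hold 66.7% with pyrimidines throughout.

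Rbm25, a splicing regulator, rose from 3584 and 3567 to 27991 and 19603 normalized counts (2.71, SE 0.30, adjusted p = 1.04e-17). Eif5b, which joins ribosomal subunits, rose from 3807 and 3926 to 18671 and 15274. Prrc2c and the histone chaperone Anp32b rose by 1.17 and 1.21. Hsp90ab1, the constitutive cytosolic HSP90, rose by 0.83 but was -0.07 with quantile normalization. Hsp90aa1, its inducible form, and the ER form Hsp90b1 differed by 0.36 and 0.05 and did not pass (1.37 and 1.07 on the coding scale, which passed). Canx, an ER lectin chaperone, fell from 12785 and 13760.0 to 6044 and 7139.6 (-1.01, and 0.00 on the coding scale). Lyz2, the macrophage lysozyme, went from 47777 and 70584 to 13668 and 38123 and Ftl1, ferritin light chain, from 29683 and 34130.4 to 8303 and 19285, and both fell, though neither passed on the coding scale (-0.33 and -0.32). Lpl, lipoprotein lipase, also under 70% purine, had 45262 and 45937 and then 38508 and 53427, a difference of -0.01 that did not pass (1.006 on the coding scale).

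**Figure D5:**
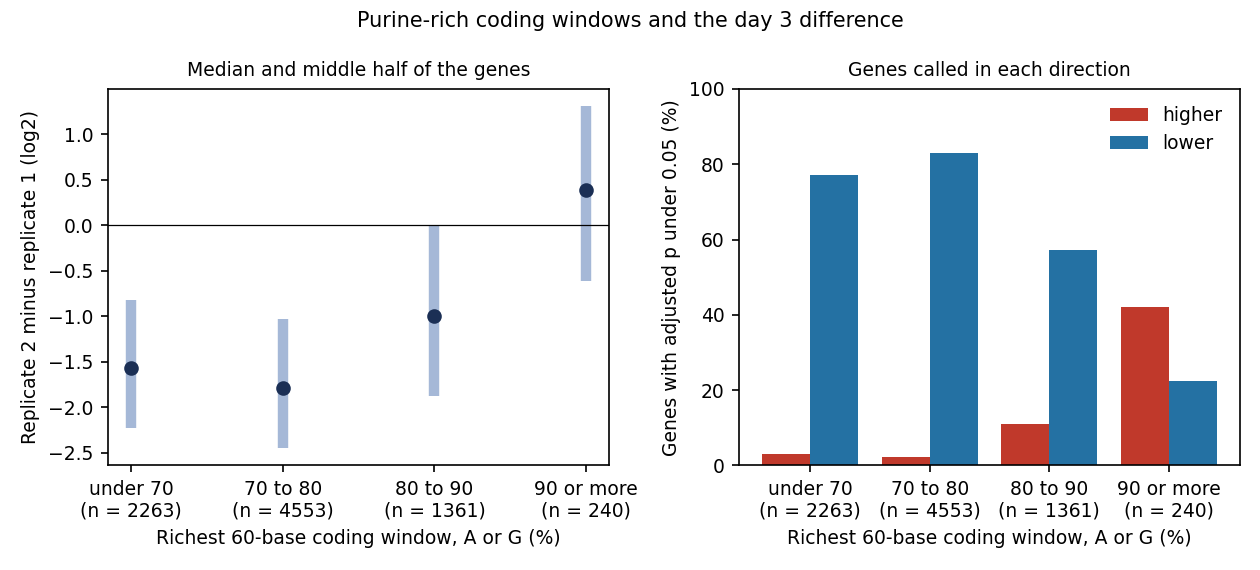
Nuclear coding genes grouped by the share of A or G in their richest 60-base coding window (x axis, %), with the median and middle 50% of the log2 difference on the left and the share of genes called in each direction (%) on the right. The 240 genes at 90% or more have a median of 0.39 and 42.1% higher, while the other 3 groups have medians from -1.79 to -0.99.

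Of 84 cytosolic ribosomal protein genes, 11 were higher and 35 lower, with a median of -0.47. On the coding scale the median was 0.54 (0.31 with quantile normalization) and 42 were higher and 3 lower, so relative to other mRNAs more of them gained than lost share. Rpsa, the laminin receptor protein of the small subunit, rose from 18642 and 17659 to 50808 and 59776 normalized counts. Rpl4 fell by 0.90 on the log2 scale and was 0.11 on the coding scale. Rps3a1 fell by 1.44 on the log2 scale (-0.43 on the coding scale). Processed copies of these genes exist and may share reads. Of 30 translation factors, 1 was higher and 24 lower (median -1.64). Eef1a1, which carries aminoacyl-tRNA to the ribosome, fell from 154594 and 140022 to 17322 and 29204, and Eef2, the translocase, from 43892 and 40646 to 11260.3 and 16284. Pabpc1, the cytoplasmic poly(A)-binding protein, had 53833 and 49108 and then 40967 and 35783 and did not pass (-0.43, but 0.59 on the coding scale). Eif3a, the large scaffold of initiation factor 3, was the single riser, from 12990.3 and 13219 to 26409.9 and 25165. Of 20 aminoacyl-tRNA synthetases, 1 was higher and 16 lower (median -1.91). The numbers over all 11383 protein-coding genes tested were 741 higher and 8013 lower (median -1.40).

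Of 76 oxidative phosphorylation subunits, 4 were higher and 54 lower (median -1.07, -0.07 on the coding scale and 0.27 with quantile normalization). Atp5a1 and Atp5b, the catalytic-head subunits of ATP synthase, went from 11646 and 10436 to 1227 and 1789 and from 16057 and 14096 to 2816 and 3689. Cox4i1, a cytochrome c oxidase subunit, had 3529 and 3076 and then 2018 and 2908 and did not pass (-0.44, but 0.57 on the coding scale). Of 81 mitochondrial ribosomal protein genes, 2 were higher and 58 lower (median -1.17, and 0.23 with quantile normalization). The lower counts of both lists were near the share over all protein-coding genes tested, 8013 of 11383 (median -1.40).

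Of 31 splicing regulators and genes known for retained introns, 5 were higher and 17 lower (median -0.84, but 0.16 on the coding scale and with quantile normalization). Srsf11, an SR-like protein of nuclear speckles, rose from 1946 and 1994 to 12882 and 12435 normalized counts. Luc7l3, a U1 snRNP associated factor, rose from 2296 and 2313 to 14867 and 9831, and Pnisr and Rbm39 rose by 2.12 and 1.74. Rbm25, described with the windows, also rose. Ddx5, an RNA helicase, fell from 15974 and 14716 to 1823 and 2628, and Hnrnpa2b1, an RNA carrier protein, from 15675 and 16014 to 2168 and 3674. Of 27 chromatin regulators with long mRNAs, 12 were higher and 7 lower (median 0.14, and 1.15 on the coding scale with 20 higher and 3 lower). All protein-coding genes tested had 741 higher and 8013 lower of 11383 (median -1.40, and -0.50 on the coding scale). Smarca4, a remodelling ATPase, rose from 2473 and 2355 to 7346 and 7245. Ncor1, a corepressor, and Atrx, a heterochromatin remodeller, rose by 1.12 and 0.83. Chd4, the NuRD ATPase, had 6766 and 7016 and then 7797 and 7384 and did not pass (0.14).

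Of 13 glycolysis enzymes, 0 were higher and 12 lower by limma (median -2.06, -1.06 on the coding scale). Pgk1, phosphoglycerate kinase, went from 17492 and 19222 to 932 and 2038 normalized counts. Gapdh went from 26302 and 25133 to 6070.4 and 11925 and the pyruvate kinase gene Pkm from 34528 and 38615 to 6201 and 12552. Of 18 cytosolic chaperonin and heat shock genes, 16 were lower (median -2.41) and 1, Hsp90ab1, higher. Hspa8, the constitutive HSC70, and Hspd1, the mitochondrial HSP60, fell (-2.01 and -2.41). Of 21 ER chaperone genes, 16 were lower (median -1.62), with Hspa5, the ER HSP70, at 12918 and 14971 and then 4227 and 6264. Of 29 lysosomal genes, 26 were lower and 1 higher (median -1.63). Cathepsins Ctsb and Ctss fell (-1.63 and -1.96). Laptm5, a lysosomal membrane protein of leukocytes, was the riser, from 10967 and 8461 to 16694 and 17309. Of 34 proteasome subunits, 28 were lower and 1 higher (median -1.70), and of 20 V-ATPase subunits 16 were lower (median -1.45). Actb, cytoplasmic actin, had 35676 and 37749 and then 20583 and 29319 and did not pass by limma (-0.58, adjusted p = 0.0564, but 0.43 on the coding scale). Of 24 actin cytoskeleton genes 18 were lower (median -1.40). Over all protein-coding genes tested, mitochondrial mRNAs counted, 8013 of 11383 were lower (median -1.40), so the actin and ER chaperone counts were near that share. Fth1, ferritin heavy chain, had 16172 and 4628 in the vehicle pair and 25409 and 14621 in the treatment pair, a fall of 1.30 on the log2 scale. Zinc finger genes, 298 tested, had 10 higher and 233 lower (median -1.59).

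Of 30 DNA replication genes 28 were lower and 0 higher by limma (median -2.42, -1.45 on the coding scale). Mcm6, a subunit of the replicative helicase, fell from 3327 and 3829.9 to 143 and 268 normalized counts. Pcna, the sliding clamp, fell from 4553 and 5291 to 541 and 1017. Rrm1, of ribonucleotide reductase, and Uhrf1, which couples methylation to replication, fell (-3.29 and -3.25). Of 30 mitosis genes 28 were lower and 0 higher (median -2.67, -1.69 on the coding scale). For comparison, 8013 of 11383 protein-coding genes tested were lower (median -1.40, -0.50 on the coding scale). Top2a, the decatenating topoisomerase, went from 6914 and 8130.2 to 4264 and 4127 (-0.84, but 0.18 on the coding scale). Mki67 fell by 1.66 on the log2 scale. Cenpf, a kinetochore protein gene, did not pass (-0.46, but 0.55 on the coding scale).

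Macrophage genes were present in all 4 libraries. Of 23 tested, 1 was higher and 16 lower (median -1.35, -0.33 on the coding scale). That lower count was near the share over all protein-coding genes tested, 8013 of 11383 (median -1.40). Lyz1 fell by 2.54 on the log2 scale, and Cybb, the NADPH oxidase subunit, had 8622 and 8597 in the vehicle pair and 16314 and 19005 in the treatment pair and did not pass (0.11). Irf8, a myeloid transcription factor, had 271 and 182 in the vehicle pair and 261 and 258 in the treatment pair and did not pass (-0.28, but 0.70 on the coding scale and 1.16 with quantile normalization). Inflammatory genes had 1 higher and 14 lower of 25 (median -0.93), interferon response genes 0 higher and 25 lower of 28 by limma (median -1.41) and p53 targets 0 higher and 17 lower of 21 (median -1.97). Immediate early and other unstable mRNAs had 1 higher and 16 lower of 33 (median -0.76, but 0.02 on the coding scale). Nfkbia, the rapidly induced NF-kB inhibitor, rose from 2359.7 and 2778 to 5937 and 9224 normalized counts. Myc fell from 2672 and 3097 to 269 and 521, and Mcl1, a short-lived antiapoptotic BCL2 relative, from 12899.7 and 12813 to 2208 and 4193. Markers of T and NK cells, B cells, fibroblasts and osteoblasts, epithelial cells, endothelial cells, and erythroid cells and platelets summed to at most 0.000904% of reads per list in any of the 4 libraries. Cd2, Ms4a1, Col1a1, Bglap, Tek and Gata1 were at 0 in all 4, while other members had reads. Few passed the filter. The T and NK cell list had 1 tested, which was lower. Of 2 B cell markers tested, 1 was higher and 1 lower. Of 2 erythroid and platelet markers, 1 was higher and 0 lower. In the other 3 lists 0 were called.

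Osteoclast effector genes, induced by RANKL through NFATc1, had 1 higher and 17 lower of 21 (median -1.52, -0.54 on the coding scale). Beside them, 8013 of 11383 protein-coding genes tested were lower, with a similar median (-1.40, -0.50 on the coding scale). Nfatc1, the master regulator, fell from 6224 and 5354 to 930.4 and 1198 normalized counts. Tnfrsf11a, the RANK receptor, fell from 3365 and 3184 to 682 and 735 and Atp6v0d2, a V-ATPase subunit needed for precursor fusion, from 4612 and 3129 to 849.6 and 1085. Ctsk, the collagen-cleaving cathepsin, had 2085 and 581 in the vehicle pair and 1866 and 1414 in the treatment pair, a fall of 1.11 on the log2 scale (-0.11 on the coding scale and 0.02 with quantile normalization). Acp5, the TRAP phosphatase, had 1068 and 675 in the vehicle pair and 742 and 814 in the treatment pair and did not pass (-0.26, but 0.74 on the coding scale and 1.04 with quantile normalization). Tcirg1, another V-ATPase subunit, did not pass (0.21). Mmp14, a membrane collagenase, rose from 11.7 and 43.0 to 137 and 220.5.

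The day 5 libraries offer the most similar comparison, with the same contrast of replicate numbers in other libraries. The median over all genes was -0.95 at day 5, and the correlation between the day 3 and day 5 differences across the 14844 genes was 0.88, all libraries having been made with the same kit. In a limma fit over 12 libraries the difference was higher at day 3 than at day 5 for 714 genes (4.81%) and lower for 1477 (9.95%). Without the filter on low values, these counts were 571 and 717. Osteoclast effectors separated the days: 15 of 21 were lower at day 3 than at day 5, where their median was 0.46. Acp5 differed by -0.26 at day 3 and 4.78 at day 5, and Ctsk by -1.11 and 4.54. Cytosolic ribosomal protein genes (45 of 84 lower at day 3) and oxidative phosphorylation subunits (44 of 76) also had more negative differences at day 3. Mitosis and interferon response genes went the other way by limma, with 11 of 30 and 10 of 28 higher at day 3 and 0 lower. Among polymerase III RNAs, 4 of 6 were higher at day 3, where the median was 1.74 against 0.77.

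Of 5650 genes without a read in both replicate 2 libraries, 108 had at least 10 normalized counts in both replicate 1 libraries. By class, among genes without such a read, these were 30 of 2433 coding genes, 24 of 982 processed pseudogenes and 17 of 356 antisense RNAs. Of 3875 genes without a read in both replicate 1 libraries, 63 reached 10 in both replicate 2 libraries, although replicate 2 was sequenced less deeply. By class these were 14 of 570 processed pseudogenes, 11 of 147 TEC loci, 11 of 201 snRNA genes, 7 of 244 antisense RNAs and 5 of 1647 coding genes. Each read was worth 0.78 normalized counts in replicate 1 and 1.47 and 1.57 in replicate 2. A set of 12 loci annotated as coding, picked after their values were seen, shared 53.3% to 96.2% of their 20-base stretches with each other, so their reads cannot be assigned to 1 locus. Gm10800 had 46.1 and 1323 normalized counts in the vehicle pair and 14.1 and 696 in the treatment pair.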

How the data were processed

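The deposited table holds 1 value per gene and library, log2(normalized count + 8), per the file headers and the values themselves, made by the authors. The submitters' processing notes name TopHat2, SAMtools, DESeq2 and mm9. No strand setting is stated. The offset of 8 was subtracted to recover normalized counts, which sum to the same total in each library, and their steps gave whole reads within a tolerance of 0.02. Of 24757 table lines, 993 repeats were dropped, leaving 23764 identifiers. Identity was taken from the Ensembl column, since the first columns matched it in only 49 lines. Classes came from GENCODE M21 (GRCm38) for 23315 identifiers, and no coordinates are given because the builds differ.

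Genes with at least 10 normalized counts in at least 1 of the 4 libraries (14844) were tested with limma 3.58.1 (R 4.3.3), with a replicate 2 term, the arm as a block, a trended prior and Benjamini-Hochberg adjustment at 0.05. With 1 residual degree of freedom, the prior gives each gene nearly the spread of genes at its level. A fit over all 12 libraries compared days 3 and 5, and pairs. On simulated data over these 14844 genes with a noise SD of 0.25, 62 of 100 changes of 1 log2 unit and 100 of 100 of 2 units were recovered, with 12 false calls. Only those genes changed, all with a mean of at least 50. The noise was independent with 1 SD for every gene, and no shift in composition was simulated. These rates therefore do not describe the error of the calls in the real libraries. Named genes are the 10 largest rises and falls with a mean of at least 50 in the higher kind and the same direction in both pairs, up to 4 members of each list by mean normalized count, and Malat1, Neat1, Actb, Gapdh, Eef1a1, Fth1, Lyz2, Acp5, Ctsk, Irf8 and Nfatc1. Other genes, the intronic pairs, the purine windows and the repeat loci were picked after their values were seen. The members and lists were chosen with earlier results of these data known. Alternatives covered scaling, pseudocount, filter, block, libraries fitted and limma-voom on recovered reads. Tables were made in Python 3.11.15 (pandas 2.3.3 on numpy 2.4.6) and plots with matplotlib 3.10.9.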

Additional observations from a re-analysis of the deposited data

Results flagged for a closer look

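Of 114 genes compared, 32 had a difference between replicate 2 and replicate 1 that itself differed between days 3 and 5, by limma over 12 libraries with Benjamini-Hochberg adjustment over all genes tested. Values are the day 3 difference minus the day 5 difference, on the log2 scale. Among osteoclast genes the differences between days were Ctsk -5.65, Acp5 -5.04, Atp6v0d2 -3.83, Nfatc1 -2.29, Tcirg1 -1.33 and Mmp14 1.39. For noncoding RNAs they were Gm42418 2.25, Gm22972 1.80, Rn7sk 1.78, Rn7s2 1.11, Rn7s1 1.10, Gm26917 0.87 and Kcnq1ot1 -0.95. For histone and cell cycle mRNAs they were Hist1h2ap 1.65, Hist1h2ao 1.65, Top2a 1.81, Mki67 1.27 and Cenpf 1.22. For chaperones they were Hsp90b1 1.35, Hspa5 1.26, Canx 0.82 and Anp32b 0.91. For ribosomal protein and oxidative phosphorylation genes they were Rps3a1 -0.89, Atp5a1 -1.31, Atp5b -1.18 and Cox4i1 -1.07. For splicing, chromatin and the remaining genes they were Srsf11 0.97, Smarca4 0.90, Ddx5 -0.97, Ctss -1.13, Ftl1 -1.22 and Crkl -1.14. Atp6v0d2, Acp5 and Ctsk were lower or did not pass at day 3 and had positive differences at day 5 (1.85, 4.78 and 4.54). What else differed between the days was not tested.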

How the results depend on the processing

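Scaling decided how many genes were called in each direction. With 9556 genes lower and 1671 higher on the deposited scale, 6253 were lower and 3559 higher after scaling to the nuclear coding total, and 5259 and 4388 after quantile normalization. Genes past 1 log2 unit in both pairs went from 7259 lower and 1068 higher to 3489 and 2134 on the coding scale and 2588 and 2459 with quantile normalization. Of 40 lists, 11 had a median above 0 on the deposited scale, 17 on the coding scale and 18 with quantile normalization. Fitting all 12 libraries gave 10474 lower and 2032 higher, and called 5 of the 114 named genes that the fit to 4 libraries did not. Each day 3 library was then left out of the fit to 12 in turn. These fits leave 1 pair, whose spread is taken from the other groups, so only differences are given. Without either vehicle library, the differences were -1.04 for Pvt1, 0.57 for Hsp90aa1, 0.52 for Tcirg1, -0.54 for Cenpf and -0.46 for Pabpc1. Without either treatment library, they were -0.98 for Gas5, -0.79 for Actb, -0.55 for Irf8, -0.66 for Acp5, -0.80 for Cox4i1 and -0.39 for Pabpc1. Limma-voom on recovered reads called 9583 lower and 1783 higher. Without the filter, 717 genes were lower at day 3 than at day 5, against 1477. Outside mitochondrial RNA and Malat1, nuclear coding shares were 90.5% and 66.0% in the vehicle pair and 90.5% and 71.6% in the treatment pair. List medians that changed sign on the coding scale were snoRNA hosts 0.43, immediate early genes 0.024, splicing regulators 0.16, cytosolic ribosomal proteins 0.54, snoRNAs 0.21 and lincRNAs 0.52. With quantile normalization they were 0.79 for snoRNA hosts, 0.16 for splicing regulators, 0.31 for cytosolic ribosomal proteins, 0.23 for mitochondrial ribosomal proteins, 0.27 for oxidative phosphorylation, 0.074 for snoRNAs and 0.58 for lincRNAs. Of genes called on at least 1 of the scales, those that changed sign on the coding scale were Canx 0.00037, Irf8 0.70, Top2a 0.18, Cenpf 0.55, Acp5 0.74, Rpl4 0.11, Cox4i1 0.57 and Rasal2 0.61. With quantile normalization they were Firre 0.012, Pvt1 0.29, mt-Co1 -0.22, mt-Rnr2 -0.26, Hsp90ab1 -0.072, Irf8 1.16, Acp5 1.04, Ctsk 0.020 and Rasal2 0.76. Genes that changed sign without a call on either side were Gas5 (0.47), Pabpc1 (0.59), Actb (0.43) and Lpl (1.006) on the coding scale, and Gas5 (0.35), Cenpf (0.38) and Cox4i1 (0.32) with quantile normalization. Leaving out a treatment library turned Cybb (-0.0043) and Tcirg1 (-0.098), and leaving out a vehicle library turned Acp5 (0.13), Hsp90b1 (-0.019) and Lpl (0.22), none of them called. Under the other alternatives run, 0 of 114 named genes changed sign. No paired analysis was possible because a block on the labels' replicate number would be the comparison itself. The fit was blocked by arm instead, and without that block 9466 genes were lower and 1625 higher.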
